A study of Mus musculus with 24 samples.

Results

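DNA methylation is laid down, copied and removed by a small set of enzymes and read by proteins that bind methylated CpG. The 9 genes described here were Dnmt1, Dnmt3a, Dnmt3b, Uhrf1, Tet1, Tet2, Tet3, Mbd2 and Tdg, picked by symbol from the 18647 genes of the count table. All 9 were among the 18153 genes that passed the filter on low counts. RNA was taken from the CA1 field of the hippocampus of adult C57Bl/6N mice (at least 60 days old and 20 g) after status epilepticus (SE), a prolonged seizure, and from non-SE controls (Ctr). SE was induced with 335 mg/kg of the muscarinic agonist pilocarpine, given 20 min after 1 mg/kg scopolamine methyl nitrate, and was treated with 4 mg/kg diazepam 40 min after its onset. The SE groups hold no mice in which pilocarpine failed to bring on SE, and for Ctr the pilocarpine was replaced by saline. The SE groups were 6, 12, 24, 36 and 72 h, and the Ctr groups were 12, 36 and 72 h, with 3 libraries each and 24 in all. The mice behind each library were not described, so the p-values measure the spread between libraries.

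DNMT3A and DNMT3B place methyl groups on unmethylated CpG, whereas DNMT1 copies the pattern onto the new strand after replication, at hemimethylated sites that UHRF1 recognises. The TET enzymes oxidise 5-methylcytosine, and TDG cuts out the later oxidation products so that base excision repair can restore cytosine. MBD2 binds methylated CpG and brings in the NuRD deacetylase and remodelling complex. Mature neurons do not divide, yet DNMT1, DNMT3A and the TET enzymes are known to be present in them, while UHRF1 is known mainly from dividing cells.

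The deposited values were raw counts per gene. Library totals ran from 2663936 to 30133731 counts with a median of 13521590, and Ctr 72 h held the 2 shallowest libraries of the series, at 5793721 and 2663936. Levels are given as CPM, counts relative to the library total after TMM scaling, which adjusts that total for library composition. Changes are log2 fold changes (log2FC) with their standard error (s.e.) from 1 edgeR fit over all libraries. Adjusted p-values come from the quasi-likelihood test of edgeR and are adjusted by Benjamini-Hochberg over all 18153 genes. A gene was called when its adjusted p was at most 0.05 and its log2FC was at least 0.66 in size, or 1 between SE time points.

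One library stood apart. Ctr 72 h replicate 2 had a score of -136 on the second principal component, where the other controls ran from 8.54 to 22.8. Its 12 sensory ganglion genes, which mark peripheral neurons and their Schwann cells, summed to 2476 CPM, against 31.4 to 136 CPM in the other controls. In 5 SE libraries this sum also exceeded 500 CPM (SE 6 h replicate 3, SE 12 h replicate 1, SE 36 h replicate 3 and SE 72 h replicates 1 and 2). Pmp22 had the highest mean of these genes over all libraries, and at most 1 of the 12 was at 0 in any library. Calls that changed without the 6 libraries are given with both values. As a check of the tissue label, 10 neuronal markers summed to 13943 ± 2067 CPM (SD, n = 9) in Ctr and 4 markers of CA1 pyramidal cells to 1130 ± 292 CPM, against 206 ± 46.5 CPM for 4 markers of dentate granule cells, the neighbouring field.

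In Ctr 12 h the 9 genes covered a wide range of levels. Per kilobase of the canonical transcript, Mbd2 had the highest level, at 18.5 ± 0.658 CPM per kilobase (FPKM; SD, n = 3), followed by Dnmt1 at 11.5 ± 1.43 FPKM, Tet3 at 9.91 ± 1.45 FPKM and Dnmt3a at 9.22 ± 0.726 FPKM. For Dnmt1, Tet3 and Dnmt3a the ranges of mean ± SD of neighbours in this order overlapped. Tet2 came next at 5.21 ± 0.863 FPKM and Tdg at 3.18 ± 0.146 FPKM. Tet1, at 0.653 ± 0.13 FPKM, and Uhrf1, at 0.60 ± 0.196 FPKM, overlapped likewise, and Dnmt3b was the lowest at 0.23 ± 0.0565 FPKM. The place of Mbd2 depended on the length used, since over the union of all annotated exons Dnmt1 led at 7.99 FPKM and Mbd2 had 4.10 FPKM. Bulk tissue was measured throughout, so that fewer cells of a type and less RNA per cell cannot be told apart.

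**Figure D1:**
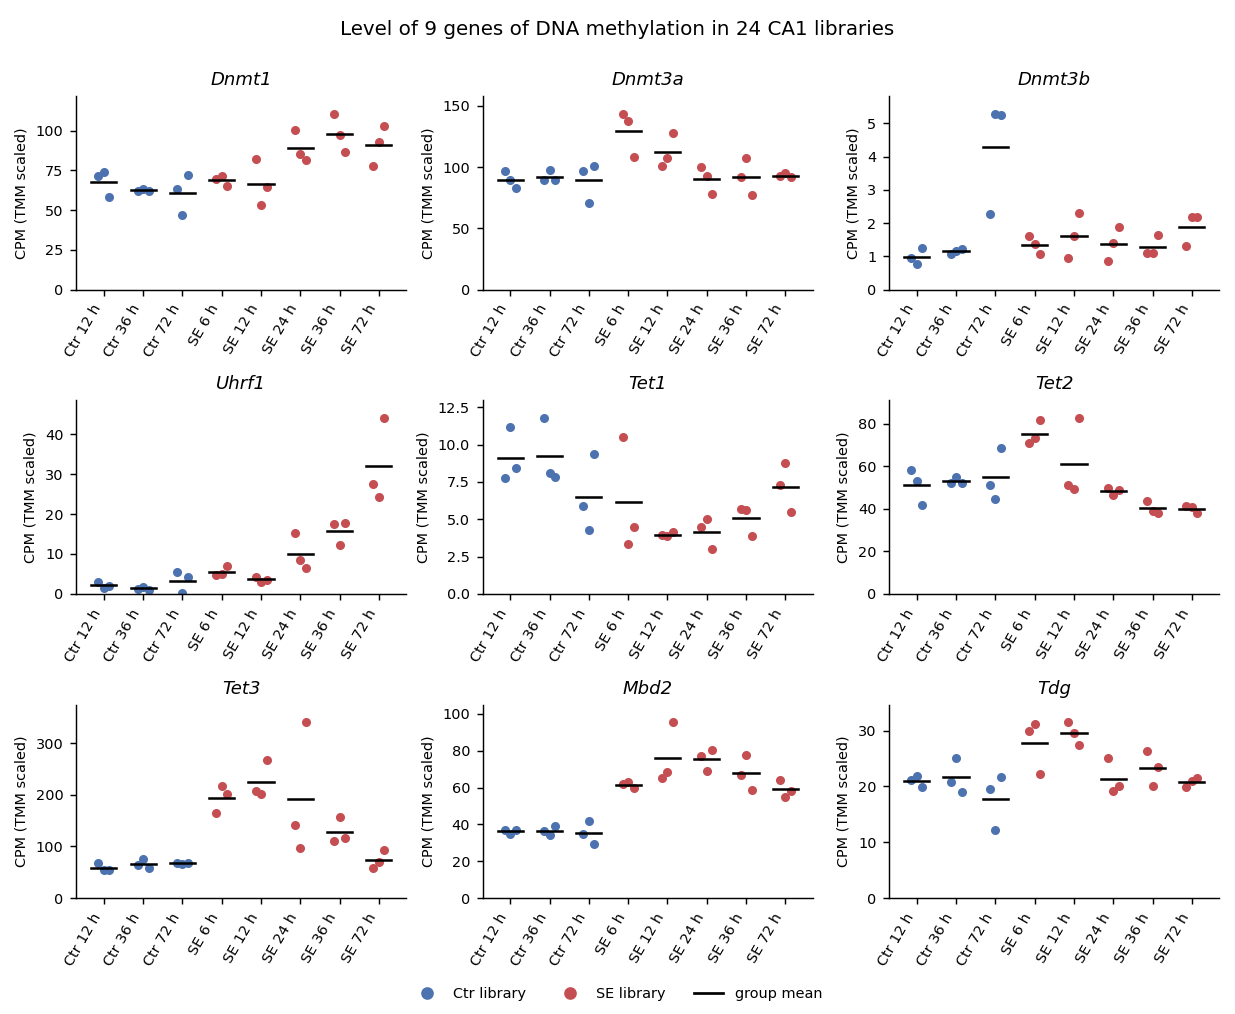
Level of each of the 9 genes in every library, in CPM after TMM scaling (vertical axes from 0), for the 3 Ctr groups (blue) and 5 SE groups (red); points are libraries and black bars group means (n = 3). Uhrf1 had its highest values at SE 72 h (24.2 to 44.1 CPM), Tet3 had a single high value of 341 CPM at SE 24 h, and all SE values of Mbd2 (54.8 to 95.5 CPM) lay above all Ctr values.

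Of the 9 genes, 3 were called at SE 12 h against Ctr 12 h, where 25% of all genes were called. Tet3 and Mbd2 rose (13.7% of all genes did) and Tet1 fell (11.2%). In the 36 h comparison Uhrf1, Tet3 and Mbd2 rose, with 21.4% of all genes called and 12.6% called higher. For 72 h Uhrf1 and Mbd2 rose, with 19.2% of all genes called and 15.1% called higher. The SE groups of 6 and 24 h, for which no Ctr group of the same time was analysed here, were set against the mean of the 3 Ctr groups. Uhrf1, Tet3 and Mbd2 rose at 6 h (21.9% of all genes called, 15.7% higher), and at 24 h they rose while Tet1 fell (24% called, 14.8% higher and 9.13% lower). By the adjusted p alone, 5 members passed in the 12 h comparison (38.2% of all genes), 4 in that of 36 h (31.5%), 3 in that of 72 h (27.9%), 6 in that of 6 h (39.8%) and 5 in that of 24 h (41.2%). These comparisons share control libraries in part. Over the 9 genes the median log2FC was 0.50 at 12 h, beside 0.0071 over all genes. For 36 h it was 0.17 beside 0.0033, and for 72 h 0.22 beside 0.097. When the ranges of the sample numbers in the labels, whose meaning is not given, were added as a factor, the calls of Tet1 at 12 h (-0.86, adjusted p = 0.0779) and 24 h (-0.58, adjusted p = 0.281), Tet3 at 36 h (0.92, adjusted p = 0.0512) and Mbd2 at 72 h (0.60, adjusted p = 0.0517) were lost. Dnmt1 was then called at 36 and 72 h and Tet2 at 72 h, and calls for differences between time points and between controls are taken up with each gene. No range held both SE and Ctr libraries of 72 h, and the range that held all SE 24 h libraries held no Ctr library. In these comparisons, of 24 and 72 h, the range and SE cannot be told apart.

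**Figure D2:**
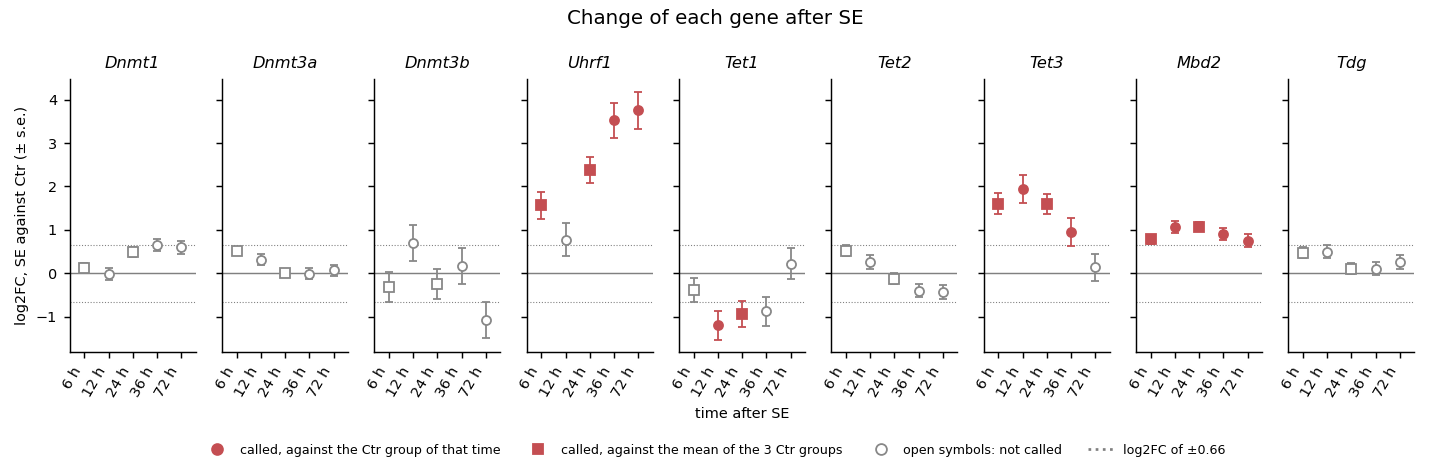
log2FC of each gene after SE with its s.e. as bars, by time after SE; circles are against the Ctr group of the same time, squares against the mean of the 3 Ctr groups, filled red symbols were called and dotted lines mark ±0.66. Uhrf1 reached 3.75 at 72 h, Tet3 was highest at 12 h (1.94), Mbd2 stayed between 0.75 and 1.08, and Dnmt3a and Tdg were called at no time.

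Uhrf1, the reader of hemimethylated CpG that brings DNMT1 to new DNA, had the largest change of the 9 genes. Its level was 2.93, 1.52 and 2.09 CPM in the Ctr 12 h libraries, 1.29, 1.77 and 1.07 CPM in Ctr 36 h, and 5.40, 0.171 and 4.12 CPM in Ctr 72 h. The value of 0.171 CPM was a single count in Ctr 72 h replicate 2. After SE it was 4.79, 4.90 and 7.01 CPM at 6 h, 4.27, 2.98 and 3.59 CPM at 12 h, and 15.2, 8.49 and 6.52 CPM at 24 h. The libraries of 36 h had 17.5, 12.2 and 17.8 CPM, and those of 72 h 27.5, 24.2 and 44.1 CPM. From 24 h on, every SE library lay above every Ctr library, and the libraries of 12 h lay just above Ctr 12 h, whereas those of 6 and 12 h overlapped with Ctr 72 h. The log2FC was 3.52 (s.e. 0.40, 11.5-fold, adjusted p = 1.33e-06 by edgeR) at 36 h and 3.75 (s.e. 0.43, 13.5-fold, adjusted p = 1.66e-06) at 72 h. The Ctr 72 h libraries weighed on the latter, which was 2.69 without replicate 2 (adjusted p = 5.36e-05), 4.58 without replicate 1 and 3.15 without the 6 libraries rich in sensory ganglion genes. Uhrf1 was not called at 12 h, where its log2FC of 0.77 (adjusted p = 0.12) had a 95% interval from -0.03 to 1.57. Against the mean of the 3 Ctr groups it was 1.56 (s.e. 0.30) at 6 h, or 0.97 without those 6 libraries (adjusted p = 0.0238), and 2.38 (s.e. 0.29) at 24 h.

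Uhrf1 was also the only member called between consecutive SE time points. From 12 to 24 h it rose by 1.43 on the log2 scale (s.e. 0.36, adjusted p = 0.0186 by edgeR), in a comparison that called 3.1% of all genes. The steps from 6 to 12, 24 to 36 and 36 to 72 h, which called 1.29%, 0.468% and 4.04% of all genes, called no member. This call was lost without the factor of unwanted variation (log2FC 1.47, adjusted p = 0.076) and without SE 24 h replicate 1 (1.03, adjusted p = 0.111), SE 12 h replicate 2 (1.30, adjusted p = 0.0604) or SE 12 h replicate 3 (1.42, adjusted p = 0.0545). The other steps between neighbouring SE times were -0.61, 0.70 and 0.95 in order of time and were not called, with adjusted p of 0.363, 0.323 and 0.0818. The last was called with limma-voom, without Ctr 72 h replicate 2, which shares the estimate of the spread, or without the 6 libraries (1.57, adjusted p = 0.037). The test of the difference between time points found a larger SE effect at 36 h than at 12 h, by 2.75 (s.e. 0.55, adjusted p = 0.0104), and at 72 h than at 12 h, by 2.98 (s.e. 0.58, adjusted p = 0.00137). These tests called 3.36% and 18.3% of all genes, and 1 and 5 of the 9 members. The first call was lost without the factor of unwanted variation (2.75, adjusted p = 0.0526), and over the other fits that difference ran from 2.67 to 3.85. The second difference was 1.94 without Ctr 72 h replicate 2 and 3.82 without replicate 1, both called. The effects at 72 and 36 h differed by 0.23, with a 95% interval from -1.01 to 1.47, and no member was called in that test (4.72% of all genes).

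Dnmt1, the maintenance methyltransferase, had much smaller changes. Its libraries had 71.6, 74.0 and 58.2 CPM in Ctr 12 h, 61.9, 63.5 and 61.8 CPM in Ctr 36 h and 63.6, 46.9 and 72.4 CPM in Ctr 72 h. After SE they had 69.6, 71.4 and 65.4 CPM at 6 h, 82.0, 53.5 and 64.7 CPM at 12 h, and 101, 85.5 and 81.6 CPM at 24 h. The libraries of 36 h had 111, 97.0 and 86.8 CPM, and those of 72 h 77.6, 92.9 and 103 CPM. The groups of 36 and 72 h lay wholly above their controls, while those of 12 h overlapped. Dnmt1 passed the adjusted p at 36 h (log2FC 0.65, s.e. 0.14, 1.57-fold, adjusted p = 0.00143 by edgeR) and at 72 h (0.60, s.e. 0.15, adjusted p = 0.00427) but stayed under the fold threshold of 0.66 at both times. It passed that threshold at 36 h with DESeq2 or its size factors (0.67 for both), with scaling by library size only (0.77), in the compared groups only (0.66), with the ranges (0.69), without the 6 libraries rich in sensory ganglion genes (0.74), and without SE 36 h replicate 3 (0.74) or Ctr 36 h replicate 2 (0.66). At 72 h it did so with the ranges (0.67) and without SE 72 h replicate 1 (0.70) or Ctr 72 h replicate 3 (0.72), whereas without Ctr 72 h replicate 2 it no longer passed the adjusted p (0.43, adjusted p = 0.0674). The 24 h value was 0.49 (s.e. 0.11, adjusted p = 0.00155), and that of 12 h was -0.02, with a 95% interval from -0.31 to 0.28. The SE effect at 36 h minus that at 12 h was 0.67 (s.e. 0.20), over the fold threshold but not called (adjusted p = 0.0651). It was called with DESeq2, with library size only, without SE 12 h replicate 1 and without the 6 libraries (0.94, adjusted p = 0.00787). The SE effect at 72 h exceeded that at 12 h by 0.61 (s.e. 0.20, adjusted p = 0.0359), under the fold threshold, and was called without the 6 libraries (0.81, adjusted p = 0.0228).

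Genes of the cell cycle moved over the same hours as Uhrf1. The summed level of 16 proliferation genes, among them Mki67, Top2a and Mcm6, was 60.7 ± 12.2 CPM (SD, n = 9) in Ctr. In SE it was 70.7 ± 1.43 CPM at 6 h and 72.8 ± 7.13 CPM at 12 h (SD, n = 3), then 112 ± 30 CPM at 24 h. It reached 225 ± 56.3 CPM in the 36 h group and 430 ± 56.7 CPM in the 72 h group. Of the 16 genes, 7 were called higher and 1 lower at 6 h and 3 higher at 12 h, where 15.7% and 13.7% of all genes were called higher. The count at 12 h lay near that share. At 24 h 11 were called higher and at 36 and 72 h 15 each, with 14.8%, 12.6% and 15.1% of all genes called higher. None was called lower after 6 h. Mcm6 had the highest mean of them over all libraries, and at most 3 were at 0 in a library. Microglial genes, led over all libraries by Csf1r, moved too, from 460 ± 47 CPM in Ctr 72 h to 2548 ± 457 CPM at SE 72 h. Of these genes, 12 of 12 were called higher at 72 h, and none was at 0 in any library. At 6 h, where Uhrf1 was called, 1 of the 12 was called higher and 5 lower. Astrocyte genes, led over all libraries by Gfap, summed to 4286 ± 393 CPM in Ctr 72 h and 15225 ± 1080 CPM at SE 72 h. Of these, 5 of 9 were called higher at 72 h and none lower. Genes of oligodendrocyte precursors, led over all libraries by Olig1, summed to 309 ± 33.6 and 658 ± 123 CPM, with 3 of 6 called higher and none lower. Genes of infiltrating leukocytes, led over all libraries by Ptprc, summed to 14.4 ± 13.8 and 47.4 ± 4.65 CPM, with 2 of 5 tested called higher and none lower. In Ctr 72 h replicate 2, the lowest library for Uhrf1, the proliferation sum was 55.2 CPM. The part of dividing cells, glia or leukocytes in the values of Uhrf1 and Dnmt1 was not tested.

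**Figure D3:**
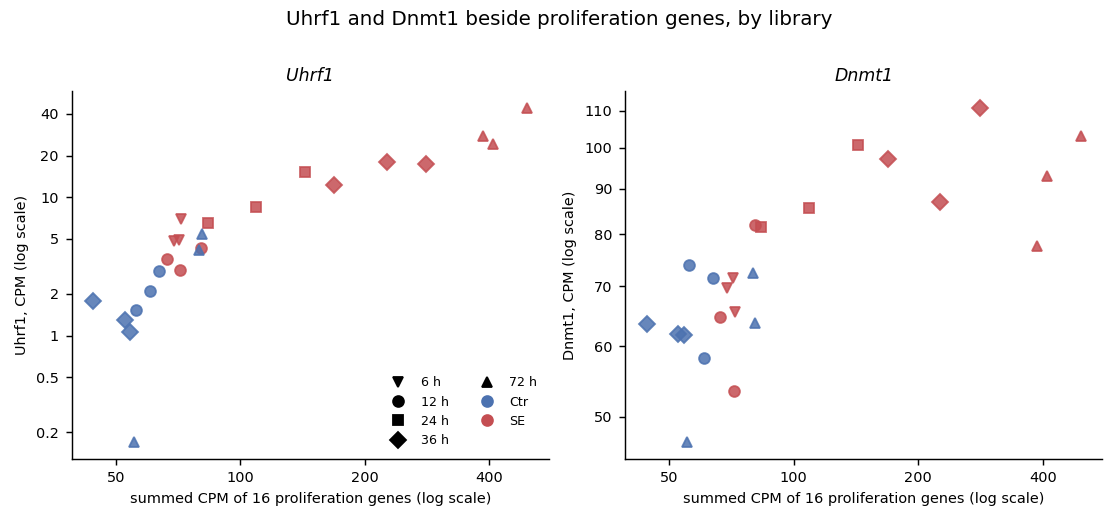
Level of Uhrf1 (left) and Dnmt1 (right) in CPM against the summed CPM of 16 proliferation genes in each of 24 libraries, all axes logarithmic; colour marks Ctr or SE and shape the time. The 72 h SE libraries combine the highest proliferation sums (386 to 494 CPM) with the highest Uhrf1 values, while Dnmt1 had its highest value, 111 CPM, in an SE 36 h library; the lone low point of Uhrf1 is Ctr 72 h replicate 2.

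Since the late values of Uhrf1 stood beside those of cell cycle genes, the promoter windows are shown where they hold the letters TTTCGCGC or TTTGGCGC, forms of the E2F motif, searched on both strands. The windows, from RefSeq on GRCm38.p6, hold 250 bases before and 50 after an annotated start, and 13 of them belong to 8 of the 9 genes. No window of Mbd2 was searched, so that nothing is said here of its promoter. TTTCGCGC was found in 1 of 2 Uhrf1 windows and 1 of 3 Dnmt1 windows and in no window of the other members, and 0.323% of all 32851 windows hold it. TTTGGCGC was found once, in the same Dnmt1 window, against 0.514% of all windows. The 30 bases around the TTTCGCGC matches are given on the strand of the gene with the match in capitals. That of Uhrf1 is at chr17:56304117-56304146 (plus strand, 185 bases before the start), and that of Dnmt1 at chr9:20952824-20952853 (minus strand, 219 bases before the start), where the reverse complement matches.
Uhrf1: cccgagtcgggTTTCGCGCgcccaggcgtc
Dnmt1: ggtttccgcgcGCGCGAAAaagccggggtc
Each match lies in a window of 33 CpG dinucleotides, against a median of 7 over all windows. The GC box GGGCGG, in 35.7% of all windows, was in a window of every matched member but Tdg. A match of letters is not a binding site, and no binding was measured.

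Tet3, the TET enzyme with the highest level in this tissue, rose early and was not called at 72 h. Its level was 68.8, 54.3 and 53.6 CPM in Ctr 12 h, 64.7, 75.3 and 58.5 CPM in Ctr 36 h and 68.3, 65.7 and 68.2 CPM in Ctr 72 h. After SE it was 165, 218 and 202 CPM at 6 h, 209, 201 and 267 CPM at 12 h and 142, 96.2 and 341 CPM at 24 h. It then was 111, 157 and 116 CPM at 36 h and 59.2, 70.8 and 92.5 CPM at 72 h. From 6 to 36 h all SE libraries exceeded all Ctr libraries, and at 72 h the groups overlapped. The log2FC was 1.94 at 12 h (s.e. 0.32, 3.84-fold, adjusted p = 0.000138 by edgeR) and 0.95 at 36 h (s.e. 0.31, adjusted p = 0.0266), and at 72 h 0.13, with a 95% interval from -0.54 to 0.80. The call at 36 h was lost without SE 36 h replicate 2 (0.78, adjusted p = 0.107), Ctr 36 h replicate 1 (0.93, adjusted p = 0.0737) or Ctr 36 h replicate 3 (0.87, adjusted p = 0.0929). Against the mean of the 3 Ctr groups it was 1.60 (s.e. 0.24) at 6 h and 1.59 (s.e. 0.24) at 24 h, or 0.89 at 24 h without replicate 3, the library with 341 CPM. The SE effect was smaller at 72 h than at 12 h, by -1.81 (s.e. 0.45, adjusted p = 0.00836), a call lost with the ranges of the sample numbers as a factor (-1.90, adjusted p = 0.0571). The difference of 36 and 12 h, -0.99 (adjusted p = 0.216), was called without the 6 libraries (-0.9997, adjusted p = 0.0354), without Ctr 72 h replicate 2 and in the compared groups only. Of the exon bases of Tet3, 9.06% are shared with Bola3 on the opposite strand, and the counting took no account of strand.

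Tet1 moved the other way and at a much lower level. Its libraries had 7.76, 11.2 and 8.43 CPM in Ctr 12 h, 11.8, 8.09 and 7.81 CPM in Ctr 36 h and 5.91, 4.26 and 9.37 CPM in Ctr 72 h. After SE they had 10.5, 3.33 and 4.50 CPM at 6 h, 3.93, 3.85 and 4.14 CPM at 12 h and 4.46, 5.01 and 3.01 CPM at 24 h. Those of 36 h had 5.71, 5.60 and 3.87 CPM, and those of 72 h 7.28, 8.78 and 5.51 CPM. The groups of 12 h and of 36 h did not overlap, whereas those of 72 h did, and at 6 h replicate 1 lay among the controls and the other libraries below 8 or all 9 of them. Tet1 fell by 1.20 on the log2 scale at 12 h (s.e. 0.34, 2.30-fold lower, adjusted p = 0.00776 by edgeR). At 24 h it fell by 0.94 against the mean of the 3 Ctr groups (s.e. 0.29, adjusted p = 0.0139), a call lost without SE 24 h replicate 3 (-0.75, adjusted p = 0.0973) and with thinned counts (-0.74, adjusted p = 0.0617). The 36 h value of -0.88 was not called (adjusted p = 0.0512), but was with DESeq2 (-0.86, adjusted p = 0.0368), limma-voom (-0.87, adjusted p = 0.0358), the compared groups only (-0.87, adjusted p = 0.0058) and without Ctr 72 h replicate 2 (-0.87, adjusted p = 0.0195), among other fits. At 6 h it was -0.39, or -1.02 without SE 6 h replicate 1 (adjusted p = 0.00658), and at 72 h 0.22 (adjusted p = 0.692), or -0.40 without the 6 libraries rich in sensory ganglion genes (adjusted p = 0.622). The SE effect at 72 h exceeded that at 12 h by 1.42 (s.e. 0.49, adjusted p = 0.0416). Without the 6 libraries this was 0.79 and with the ranges 0.87, neither called (adjusted p = 0.381 and 0.347). When each of the 12 libraries of these groups was left out in turn, this call was lost in 9 cases and kept without SE 72 h replicate 3, Ctr 12 h replicate 1 or Ctr 72 h replicate 3, with values from 1.14 to 1.69.

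Tet2 had its highest group mean at 6 h and its lowest group means at 36 and 72 h, while its highest single value was in an SE 12 h library. Its libraries ranged from 41.8 to 68.6 CPM over the 9 controls and had 71.0, 73.6 and 81.7 CPM at SE 6 h, above all of them. They had 51.3, 49.4 and 82.9 CPM at 12 h and 49.7, 46.3 and 49.0 CPM at 24 h. Those of 36 h had 43.9, 39.1 and 38.2 CPM, and those of 72 h 41.5, 40.9 and 38.1 CPM. At 36 and 72 h all SE libraries lay below the controls of that time. Tet2 was not called against Ctr at any time, with a log2FC of 0.52 at 6 h (s.e. 0.12, adjusted p = 0.00257 by edgeR, under the fold threshold) and 0.26 at 12 h (adjusted p = 0.205). It was -0.40 at 36 h (adjusted p = 0.0591) and -0.43 at 72 h (adjusted p = 0.0504), where it was called with the ranges of the sample numbers as a factor (-0.82, adjusted p = 0.0154). Its SE effect was lower at 72 h than at 12 h, by -0.69 (s.e. 0.22, adjusted p = 0.0329). That difference was -0.42 without SE 12 h replicate 3, the library with 82.9 CPM, and was then not called (adjusted p = 0.116). The call was also lost when SE 72 h replicate 2 (-0.70), SE 72 h replicate 3 (-0.65), Ctr 12 h replicate 3 (-0.56) or Ctr 72 h replicate 3 (-0.52) was left out. The same held without the factor of unwanted variation, with limma-voom, in the compared groups only and with thinned counts. Over the other fits the difference ran from -1.10 to -0.61.

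Of the de novo enzymes, Dnmt3a was abundant and was called at no time. It had 97.0, 89.9 and 82.9 CPM in Ctr 12 h, 89.6, 98.0 and 89.2 CPM in Ctr 36 h and 97.1, 70.9 and 101 CPM in Ctr 72 h. After SE it had 144, 138 and 108 CPM at 6 h, 101, 107 and 128 CPM at 12 h and 77.0 to 108 CPM from 24 to 72 h. The libraries of 6 h lay above all controls, and those of 12 h above Ctr 12 h, whereas those of 36 and 72 h overlapped with theirs. The log2FC passed the adjusted p at 6 h (0.52, s.e. 0.10, 1.43-fold, adjusted p = 0.00024 by edgeR) and 12 h (0.31, s.e. 0.12, adjusted p = 0.0435), both under the fold threshold. In the 36 h comparison it was -0.0069, with a 95% interval from -0.26 to 0.24, and in that of 72 h 0.06, with an interval from -0.19 to 0.32, so that changes of 0.66 lay outside both intervals.

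Dnmt3b rested on few reads, with 8 to 49 counts a library. Its level was 0.76 to 1.24 CPM in Ctr 12 and 36 h and 0.85 to 2.31 CPM over all SE libraries. The Ctr 72 h libraries had 2.28, 5.29 and 5.25 CPM, from 27, 31 and 14 counts, and those of 72 h after SE had 1.30, 2.19 and 2.19 CPM. Replicates 2 and 3 of Ctr 72 h lay above every other library of the series. Dnmt3b was thus called between controls, as higher in Ctr 72 h than in Ctr 12 h by 2.01 (s.e. 0.43, adjusted p = 0.0268 by edgeR) and than in Ctr 36 h by 1.80 (s.e. 0.43, adjusted p = 0.0309), where 0.848% and 1.96% of all genes were called. Both calls were lost without Ctr 72 h replicate 2 (1.80 and 1.59, adjusted p = 0.18 and 0.148) and without any 1 of the earlier control libraries compared. They were also lost without the 6 libraries (1.77 and 1.57, adjusted p = 0.199 and 0.165) and with the ranges (2.02 and 1.84, adjusted p = 0.0721 and 0.151). The background of these comparisons was itself unstable, at 0 to 1160 and 0 to 1481 genes called when 1 library was left out, against 154 and 356. For SE against Ctr the log2FC was 0.70 in the 12 h comparison (adjusted p = 0.195 by edgeR). It ran there from 0.26 to 0.95 over the other fits and from 0.39 to 0.97 over the omissions of 1 library. The log2FC of SE against Ctr was 0.17 in the 36 h comparison and -1.08 in that of 72 h (s.e. 0.42, adjusted p = 0.0593). The last was called without Ctr 72 h replicate 1 (-1.48, adjusted p = 0.0146) and with DESeq2 (-1.06, adjusted p = 0.0456). The SE effect was lower at 72 h than at 12 h, by -1.78 (s.e. 0.59, adjusted p = 0.0354), or -1.59 without the 6 libraries (adjusted p = 0.164) and -1.66 with the ranges (adjusted p = 0.148), not called. This was not called without SE 12 h replicates 2 or 3, SE 72 h replicate 1, Ctr 12 h replicates 1 or 2 or Ctr 72 h replicates 2 or 3, with values from -2.16 to -1.47 over all 12 omissions. Between Ctr 36 h and Ctr 12 h no member was called, and 0% of all 18153 genes in the main edgeR fit, with 629 at an unadjusted p under 0.05. DESeq2 called 3 genes there and the fit of the compared groups only 139.

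Mbd2, the reader that links methylated CpG to the NuRD complex, rose at every time point. It had 37.1, 34.7 and 36.7 CPM in Ctr 12 h, 36.3, 34.0 and 39.0 CPM in Ctr 36 h and 34.5, 41.6 and 29.2 CPM in Ctr 72 h. After SE it had 62.1, 63.2 and 59.6 CPM at 6 h, 65.0, 68.3 and 95.5 CPM at 12 h and 77.1, 68.8 and 80.2 CPM at 24 h. The levels were 66.5, 77.9 and 58.5 CPM at 36 h and 64.1, 54.8 and 58.3 CPM at 72 h. The highest of 9 controls, 41.6 CPM, lay below the lowest of 15 SE libraries, 54.8 CPM. The log2FC was 1.08 at 12 h (s.e. 0.14, 2.11-fold, adjusted p = 6.31e-06 by edgeR), 0.89 at 36 h (s.e. 0.14, adjusted p = 4.84e-05) and 0.75 at 72 h (s.e. 0.14, adjusted p = 0.000495). Against the mean of the 3 Ctr groups it was 0.78 (s.e. 0.11) at 6 h and 1.07 (s.e. 0.11) at 24 h. Without Ctr 72 h replicate 3, the shallowest library, the value of 72 h was 0.65 and so just under the fold threshold (adjusted p = 0.00508). The differences of its SE effect between time points were -0.18 (36 against 12 h), -0.32 (72 against 12 h) and -0.14 (72 against 36 h). Their 95% intervals, -0.59 to 0.22, -0.74 to 0.09 and -0.55 to 0.27, all held 0.

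Tdg, the glycosylase that completes the TET route, had higher values at 6 and 12 h that stayed under the fold threshold, although with counts thinned to the smallest library it was called at 12 h (0.68, adjusted p = 0.0061 by edgeR). Its libraries had 21.2, 21.8 and 20.0 CPM in Ctr 12 h and 31.5, 29.6 and 27.3 CPM at SE 12 h, without overlap. Over all 9 controls they ran from 12.1 to 25.1 CPM, at SE 6 h from 22.3 to 31.2 CPM and from 24 to 72 h from 19.1 to 26.3 CPM. The log2FC was 0.50 at 12 h (s.e. 0.15, 1.41-fold, adjusted p = 0.0118 by edgeR) and 0.48 at 6 h (s.e. 0.12, adjusted p = 0.00343), then 0.10, 0.11 and 0.26 for 24, 36 and 72 h with adjusted p of 0.527, 0.627 and 0.228. Because 57.1% of its exon bases are shared with Glt8d2 on the opposite strand, reads there could not be given to either gene, and its level is uncertain to that extent. Its promoter window was the only one among the members with the letters TGACGTCA, a cAMP response element, found in 1.79% of all windows. The match lies 135 bases before the start, at chr10:82629692-82629721 of GRCm38.p6 (plus strand), and is in capitals.
Tdg: cccacaaaagcTGACGTCAgccgggcgctc
TGANTCA, the AP-1 motif, was in no searched window of a member, and 7.81% of all windows hold it. For Mbd2 no window was searched.

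Across the SE groups alone, 6 of the 9 genes differed between time points by edgeR's test over all 5 groups, where 46.2% of all genes did. They were Uhrf1 (adjusted p = 6.22e-06), Tet2 (adjusted p = 0.000221), Tet3 (adjusted p = 0.00344), Dnmt3a (adjusted p = 0.00348), Dnmt1 (adjusted p = 0.00747) and Tdg (adjusted p = 0.0199). The call of Tdg was lost without the factor of unwanted variation, with library size only and without the 6 libraries (adjusted p = 0.0658). Of these, Dnmt3a and Tet2 had their highest SE mean at 6 h, Tet3 and Tdg at 12 h, Dnmt1 at 36 h and Uhrf1 at 72 h. Mbd2 (adjusted p = 0.0842), Tet1 (adjusted p = 0.144) and Dnmt3b (adjusted p = 0.689) did not pass. Libraries of SE and Ctr did not overlap in 6 of the 9 genes at 12 h, 6 at 36 h and 5 at 72 h, against 47.7%, 51.9% and 32.8% of all genes.

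Each member was compared with the genes of a mean log2 CPM of at least 1, which numbered 12984, or 12985 for Dnmt3b. Among these the pattern over all 24 libraries was matched most closely, by Pearson's r of log2 CPM, by Gipr (r = 0.96), Smad7 and Ifrd1 for Tet3, by Col4a1 (r = 0.97), Pabpc1 and Tnfrsf12a for Mbd2, and by Tpx2 (r = 0.94), Cchcr1 and Pold1 for Uhrf1. For Tet1 the closest were Nprl3 (r = 0.85), Vars2 and Slc26a8, and for Tet2 Atp8b2 (r = 0.89), Pard6a and Kdm3a. Dnmt1 was closest to Cchcr1 (r = 0.89), Mfn1 and Cd180, Dnmt3a to Itga9 (r = 0.80), Trim72 and Hpn, Dnmt3b to Aktip (r = 0.80), Polr2i and Cript, and Tdg to Kti12 (r = 0.84), Nol11 and Tas1r3. The libraries fall into Ctr and SE, so every gene raised or lowered by SE shares part of such a pattern, and r is given as a measure of likeness only.

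The wider pathway was covered by 6 lists. Beside their counts stand the shares of all genes called, which were 25% in the 12 h comparison (13.7% higher, 11.2% lower), 21.4% in that of 36 h (12.6% higher) and 19.2% in that of 72 h (15.1% higher), and medians over all genes of 0.0071, 0.0033 and 0.097. A count near such a share is not a result about the list. Of 14 genes of base excision repair and demethylation, 4 rose and 2 fell at 12 h (13.7% and 11.2% of all genes did), with a median log2FC of -0.04. The stress-induced genes Gadd45g (3.31, s.e. 0.55, 175 CPM against 17.6 CPM in Ctr 12 h), Gadd45b (2.81, s.e. 0.39) and Gadd45a (1.75, s.e. 0.32), whose proteins have been linked to demethylation, rose, and the glycosylase Neil2 fell by 1.63 (s.e. 0.44). The remaining calls, named after their values were seen, were the glycosylases Ung (0.93) and Neil1 (-0.94). In the 36 h comparison 4 rose, namely Neil3, Ung (2.17, s.e. 0.31), Gadd45b (1.41, s.e. 0.37) and Gadd45a (0.91, s.e. 0.32). At 72 h 3 rose, the glycosylases Neil3, Ung (2.64, s.e. 0.38) and Neil2 (1.73, s.e. 0.50). Neil2 had 59, 42 and 53 counts at SE 72 h (mean 3.36 CPM) and 23, 2 and 2 in Ctr 72 h, the last 2 in the shallowest libraries, while its mean in Ctr 12 h was 3.08 CPM. Neil3 had 71, 57 and 108 counts at SE 72 h against 2, 0 and 1 in Ctr 72 h, and 20, 17 and 41 at SE 36 h against 2, 4 and 0 in Ctr 36 h, too few in controls for a fold. The list's median was 0.26 at 36 h and 0.13 at 72 h.

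Of 7 genes that act with TET enzymes or bear on 2-hydroxyglutarate, a metabolite that inhibits them, 4 fell and none rose at 12 h. These were D2hgdh, which clears 2-hydroxyglutarate (-1.32, s.e. 0.23), Cxxc4, a binding partner of TET2 (-1.24, s.e. 0.27), the mitochondrial dehydrogenase Idh2 (-1.13, s.e. 0.17) and Ogt, a glycosyltransferase that binds TET proteins (-0.78, s.e. 0.12). The medians over the list were -0.78, -0.12 and -0.09 for 12, 36 and 72 h. None was called at 36 h, and at 72 h 1 rose, Idh2 (0.80, s.e. 0.17). Ogt had the highest mean of the 7 over all libraries, with 337 CPM in Ctr 12 h and 196 CPM at SE 12 h. Neuronal markers, led over all libraries by Camk2a, summed to 9258 ± 740 CPM at SE 12 h against 14275 ± 3478 CPM in Ctr 12 h. None of them was at 0 in any library. Of the 10 markers, 2 were called lower, where 11.2% of all genes were, and none higher. The part of neurons in the falls of TET partners was not tested.

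Among 9 tested genes of other methyltransferases and cofactors of DNA methylation, counts lay near the share of all genes at 12 and 36 h, with 2 that rose at 12 h (Uhrf2, 0.76, and Pcna, 0.72), 2 at 36 h (Hells, a remodeller needed for methylation, 1.14, and Pcna, 0.83) and 3 at 72 h (Dnmt3l, which stimulates the de novo enzymes, Cdca7l, 1.52, and Pcna, 1.14), and none fell. The medians were 0.31, 0.12 and 0.43. Pcna, the clamp of the replication fork, was called in 4 of the 5 comparisons of SE with Ctr and reached 1.59 (s.e. 0.13) at 6 h. Dnmt3l had 5, 11 and 24 counts at SE 72 h (mean 0.838 CPM) against 2, 0 and 0 in Ctr 72 h, where both counts of 0 were in the shallowest libraries of the series. In Ctr 12 h and Ctr 36 h its mean was 0.684 and 0.552 CPM, from 12, 6 and 13 and from 6, 3 and 13 counts. Of 9 other readers of methylation, among them Mbd3, none was called at 12 or 36 h, and 1 fell at 72 h (Zfp57, which binds methylated imprinted sites, -0.94, s.e. 0.23). Their medians were 0.07, -0.13 and -0.13. Of Mbd2 and these readers, Mbd2 alone was called higher in these 3 comparisons, although their changes were not tested against that of Mbd2.

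Of 14 NuRD genes, 3 were called at 12 h, where 25% of all genes were, and rose (Rbbp7, 1.00, Gatad2a, 0.77, and Cdk2ap1, 0.73). In the 36 h comparison Gatad2a rose (0.69) and Chd3, a remodelling subunit, fell (-0.76), and in that of 72 h Chd3 alone was called (-0.67, s.e. 0.15). Chd3 had the highest mean of the NuRD genes over all libraries, and the medians of the list were 0.06, 0.04 and 0.21. Of 10 genes that make the methyl donor S-adenosylmethionine or recycle its product, Mat2a rose (0.76, s.e. 0.14) and Mat2b fell (-0.82, s.e. 0.13) at 12 h, which are the catalytic and the regulatory subunit of the same synthetase. Shmt2, a mitochondrial enzyme of the folate cycle, rose at 36 h (0.85, s.e. 0.15), and Shmt1 (0.90), Mtrr (0.71) and Shmt2 (0.67) rose at 72 h. The medians were 0.08, 0.16 and 0.35.

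**Figure D4:**
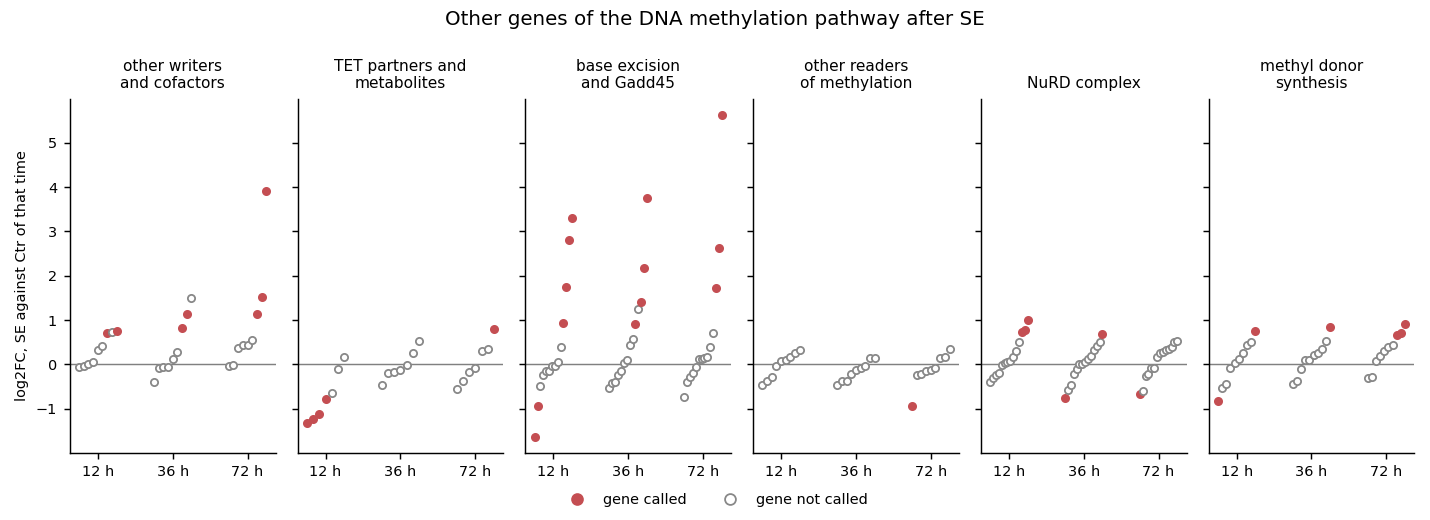
log2FC of every tested gene of 6 lists of the DNA methylation pathway in the comparisons of SE with Ctr for 12, 36 and 72 h; each circle is a gene, ordered by its value, and filled red circles were called. The 4 called genes among TET partners at 12 h lie between -1.32 and -0.78, and no TET partner was called at 36 h.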

How the data were processed

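RNA was measured in 24 libraries, 3 for each of 5 SE and 3 Ctr groups, grouped by their titles. The authors trimmed paired reads with Trim Galore 0.6.6, aligned them with STAR 2.7.8a to GRCm39, sorted them with SAMtools 1.10, counted them per gene of GENCODE M26 with HTSeq 0.13.5 without regard to strand and deposited raw counts. Symbols, lengths and overlaps came from GENCODE M39 (18552 of 18647 genes matched), promoter windows from RefSeq on GRCm38.p6.

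R 4.3.3 with edgeR 4.0.16 was used, with TMM scaling, filterByExpr over 8 groups, group terms and 1 RUVr factor (unwanted variation from residuals), glmQLFit with robust estimation and Benjamini-Hochberg adjustment over 18153 genes. CPM used no added count, log2 CPM a prior count of 2. FPKM here is CPM per kilobase of exons. The factor was dominated by Ctr 72 h replicate 2 (-0.797). On simulated data for SE 12 h against Ctr 12 h, 155 of 200 genes changed by 1.5 on the log2 scale were called (77.5%). Among all 17238 genes tested there, 9 that had not been changed were called in error. Outside the 200 genes every group was simulated from the Ctr mean, and no unwanted variation or library that stands apart was added. These counts therefore do not measure the errors in the deposited data.

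The members and lists were chosen with earlier results of these data known. Named were all members, up to 4 called genes a list and comparison by size, and the 3 genes closest to each member. Alternatives were DESeq2 1.42.0 with its size factors, limma-voom 3.58.1, other scalings, filters and thresholds, no factor, the compared groups only, the ranges of the sample numbers or the replicate numbers as a factor, thinned counts, and omission of each library and, added after values had been seen, of the 6 libraries rich in sensory ganglion genes. The sample numbers fell into 3 ranges, whose meaning the labels do not give. At 72 h no range held both SE and Ctr libraries, and the range of all SE 24 h libraries held no Ctr library. At 24 and 72 h range and SE therefore cannot be told apart.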

Additional observations from a re-analysis of the deposited data

Results flagged for a closer look

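The SE effect differed between time points in 6 cases by the interaction test of edgeR. Of the 9 members, 1 was called for 36 against 12 h, where 3.36% of all genes were. For 72 against 12 h 5 were called, where 18.3% of all genes were. Uhrf1 had a larger effect at 36 h than at 12 h, by 2.75, and a larger one at 72 h than at 12 h, by 2.98. The effect of Tet1 at 72 h exceeded that at 12 h by 1.42. The effects of Tet3 (-1.81), Dnmt3b (-1.78) and Tet2 (-0.69) were lower at 72 h than at 12 h. That of Dnmt3b came with Ctr 72 h levels of 2.28 to 5.29 CPM, against 0.76 to 1.24 CPM in Ctr 12 and 36 h. The differences of Tet1, Tet3 and Dnmt3b were not called with the ranges of the sample numbers as a factor (0.87, -1.90 and -1.66). Over 12 other fits and 12 omissions of 1 library, the call of Tet2 was lost in 4 and 5 cases. That of Tet1 was lost in 5 and 9 and that of Dnmt3b in 5 and 7. The difference of Uhrf1 between 36 and 12 h was not called without the factor of unwanted variation.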

How the results depend on the processing

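Among the Ctr 72 h libraries 2 are the shallowest of the series, and replicate 2 stands apart. Depth limits Dnmt3b (8 to 49 counts) and the control values of Uhrf1. The calls of Mbd2 at 6, 12, 24 and 36 h, of Tet3 at 6, 12 and 24 h, of Uhrf1 at 6, 24, 36 and 72 h and of the difference of Uhrf1 between 72 and 12 h held under every alternative fit at the fold threshold of 0.66. At a threshold of 1 those of Mbd2 at 6 and 36 h were lost. Mbd2 then ranged from 0.88 to 1.18 at 12 h, Tet3 from 1.80 to 2.06 at 12 h and Uhrf1 from 3.37 to 4.37 at 36 h and 2.69 to 4.58 at 72 h. Of the 54 values of members, the alternatives other than the omission of 1 library gave 573 values with the same direction and side of the threshold, 35 that lost and 15 that gained a call and 25 of the other sign, and the omissions gave 426, 37, 7 and 18. None of the values that changed sign was called before or after.

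In this paragraph the number of all genes called in the same fit follows in brackets. Without a log2FC threshold, 5 members were called at 12 h (6934) and 6 at 6 h (7221). With a threshold of 1, 1 was called at 36 h (2713) and 1 at 72 h (2523). DESeq2 called 5 members at 36 h (4154) and 2 for the difference of 36 and 12 h (1118). Scaling by library size only called 2 for that difference (670). In fits of the compared groups only, 5 were called at 36 h (4361), 0 between SE 24 and 12 h (123) and 2 for the difference of 36 and 12 h (950). These fits called 3 for the difference of 72 and 12 h (2697), 1 for that of 72 and 36 h (1181) and 0 between Ctr 72 and 12 h (4). Without the factor of unwanted variation 0 were called between SE 24 and 12 h (371), 0 for the difference of 36 and 12 h (277) and 3 for that of 72 and 12 h (2559). For Ctr 72 h, 0 were then called against Ctr 12 h (10) and 0 against Ctr 36 h (44). With counts thinned to the smallest library 4 were called at 12 h (Tdg added, 3548) and 3 at 24 h (Tet1 lost, 3218). The others were 0 between SE 24 and 12 h (334) and 2 for the difference of 72 and 12 h (2221). Thinned counts gave 0 for Ctr 72 h against Ctr 12 h (15) or Ctr 36 h (97). Limma-voom called 1 between SE 72 and 36 h (878) and 3 for the difference of 72 and 12 h (2897). It called 0 for Ctr 72 h against Ctr 12 h (1) or Ctr 36 h (8). With the ranges of sample numbers as a factor 2 were called for the difference of 72 and 12 h (2605). That fit called 0 for Ctr 72 h against Ctr 12 h (117) or Ctr 36 h (207). Leaving out the 6 libraries rich in sensory ganglion genes was an alternative chosen after seeing the data. Without them 1 was called between SE 72 and 36 h (465) and 3 for the difference of 36 and 12 h (1243). For Ctr 72 h, 0 were called against Ctr 12 h (2) or Ctr 36 h (0). The cause of these changes was not tested, beyond the fewer libraries in fits that leave some out.

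When 1 library was left out at a time, the members called numbered 3 to 3 for SE 12 h against its controls, where 3798 to 4738 of all genes were called. They numbered 2 to 4 for SE 36 h (3241 to 4082 of all genes) and 2 to 3 for SE 72 h (3066 to 3736). For SE 6 h and SE 24 h they numbered 3 to 4 each (3357 to 4217 and 3448 to 4592 of all genes). Between SE 24 and 12 h (374 to 670 of all genes) and between SE 72 and 36 h (355 to 819), 0 to 1 members were called. The difference of 36 and 12 h called 1 to 2 (207 to 1023) and that of 72 and 12 h 2 to 5 (2881 to 3827). Ctr 72 h against Ctr 12 h and against Ctr 36 h called 0 to 1 each (0 to 1160 and 0 to 1481). Over the 5 SE groups 6 to 7 were called (7252 to 9024).

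Of the values that changed sign none was called. Dnmt1 at 12 h was 0.0072 with DESeq2, 0.0071 with its size factors, 0.013 with library size only and 0.057 with the ranges. Dnmt3a at 36 h was 0.010 with DESeq2, 0.011 with its size factors, 0.12 with library size only, 0.061 with the ranges, 0.096 with thinned counts and 0.11 without the 6 libraries. At 72 h Dnmt3a was -0.17 with the ranges, -0.027 with thinned counts and -0.10 without the 6 libraries. At 24 h Dnmt3a was -0.0045 without the factor, -0.0035 with DESeq2, -0.0047 with limma-voom, -0.0034 with the size factors, -0.0010 without a filter, -0.00069 with a filter of at least 1 CPM in 3 libraries, -0.0025 with the replicate block and -0.054 without the 6 libraries. Tet1 at 72 h was -0.13 with thinned counts and -0.40 without the 6 libraries, Tet3 at 72 h -0.037 with the ranges, and Dnmt3b at 36 h -0.055 without the 6 libraries. Over the omissions of 1 library, Dnmt1 at 12 h ran from -0.20 to 0.12, Tet2 at 12 h from -0.014 to 0.39 and Dnmt3b at 36 h from -0.058 to 0.26. Dnmt3a ran from -0.13 to 0.11 at 36 h, from -0.087 to 0.14 in the 72 h comparison and from -0.077 to 0.092 in that of 24 h. Tet1 at 72 h ran from -0.048 to 0.49, Tet3 at 72 h from -0.054 to 0.28 and Tdg at 24 h from -0.020 to 0.18.

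Calls over all genes moved as well. The difference of 36 and 12 h called 610 genes, 277 without the factor, 301 with thinned counts, 950 in the compared groups, 1118 with DESeq2 and 1243 without the 6 libraries. That of 72 and 36 h called 857, and 399 to 456 without the factor, with limma-voom, with the ranges or with thinned counts, and 210 without the 6 libraries. SE 24 against 12 h called 562, but 371 without the factor, 334 with thinned counts and 123 in the compared groups. SE 12 against 6 h called 235, and 90 to 411 under the other fits, SE 36 against 24 h 85, and 18 to 300, Ctr 72 against 12 h 154, and 1 to 379, Ctr 72 against 36 h 356, and 0 to 1047, and Ctr 36 against 12 h 0, and 139 in the compared groups. When 1 library was left out, the first 4 ran from 74 to 309, 16 to 167, 0 to 1160 and 0 to 1481, SE 24 against 12 h from 374 to 670, SE 72 against 36 h from 355 to 819 (734 in all libraries), the difference of 36 and 12 h from 207 to 1023 and that of 72 and 36 h from 442 to 1672. SE 72 h against Ctr 72 h called 3485, and 2246 without the 6 libraries.

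Replicate numbers are shared by all groups. In the time-matched comparisons, deviations from the group means of libraries of the same number correlated from -0.20 to 0.18. Over all groups the median correlation was -0.0028 for pairs of the same number and -1.68e-05 for pairs of different numbers. Whether libraries of the same number share more than the number cannot be told from these values. With the replicate number as a block, 4 members were called at 36 h (Tet1 added) and 3 at 72 h (Dnmt3b added), where 3884 and 3470 of all genes were called. The other counts of members did not change.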
